A study of Mus musculus with 20 samples.

Results

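Liver RNA of obese NZO mice was set against liver RNA of lean 129Ola mice, on 8 of the series' 20 one-colour Agilent arrays, with 4 mice in each strain. NZO (New Zealand Obese, NZO/HiBomDife) is an inbred polygenic model of obesity that the study describes as susceptible to diabetes, and 129Ola (129P2/OlaHsd) is a lean strain that it describes as resistant. All mice were males on a high-fat diet in which fat made up 45% and were sampled at week 6, which the labels give as an age and also as the end of the feeding period. Every strain received that diet, so nothing here compares diets. The other 12 arrays hold 4 male mice each of C3H (C3HeB/FeJ, lean and susceptible), B6 (C57BL/6, lean and resistant) and DBA (DBA/2J, lean and susceptible), on the same diet and sampled at the same week. The comparison asks which liver transcripts distinguish the obese from the resistant strain. NZO is the only obese strain and every strain is 1 inbred genotype, so obesity and genetic background cannot be told apart.

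The liver makes cholesterol and fatty acids under the SREBP transcription factors, burns fatty acids under PPARA, turns cholesterol into bile acids and clears hormones and foreign compounds with cytochrome P450, glutathione and sulfate-conjugating enzymes. In mice many of these genes also follow the sex-specific rhythm of growth hormone, the circadian clock and the timing of meals. Interferon acts through STAT and IRF proteins to induce a large set of antiviral genes, many of which have stretches of the letters GAAANNGAAA in their promoters.

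The scanner output of the NZO, B6 and DBA arrays came from an older version of Agilent's feature extraction software and that of the 129Ola and C3H arrays from a newer one, per the file headers. The 4 129Ola arrays were scanned on 1 day, on 2 slides, and no other strain's array was scanned on that day. Software version, scan day and slide therefore cannot be told apart from strain in NZO minus 129Ola. For this reason some differences, though not all, are given beside NZO minus C3H. C3H shares the version with 129Ola but not the day or the slides. The plot of pathway list medians shows both differences for every pathway list. Where the text gives no C3H value, the difference from 129Ola stands alone, with version, day and slide not separated from strain. The direct difference C3H minus 129Ola, within 1 version, is also the test of whether NZO minus 129Ola and NZO minus C3H are unequal. All C3H arrays lay on 1 slide scanned on 1 day. Day and slide therefore cannot be told apart from strain in this difference either. NZO minus 129Ola and NZO minus C3H share the 4 NZO arrays and are not independent, so no agreement between them is counted. NZO minus B6 and NZO minus DBA lie within the older version.

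Levels are log2 processed signal minus the array's 75th percentile, so a level of 0 is that percentile, a negative level lies below it and a difference of 1 is 2-fold. A level compares mice for 1 probe and does not rank genes. A difference passed when limma's adjusted p (Benjamini-Hochberg over 18950 genes) was under 0.05. Between 40.0% and 43.4% of probes were well above background on the 129Ola arrays, 43.3% to 46.9% on the C3H arrays and 49.2% to 54.0% on the NZO arrays. In NZO minus 129Ola 4146 genes (21.9%) passed as higher in NZO and 6529 (34.5%) as lower, and 11.4% and 6.36% did so with a difference of at least 2-fold. In NZO minus C3H 18.8% were higher in NZO and 19.4% lower, or 7.57% and 4.3% at 2-fold or more. C3H minus 129Ola had 14.5% higher in C3H and 24.6% lower. The other comparisons called fewer genes, with 10.8% higher in NZO and 7.99% lower against B6, and 10.8% higher and 8.06% lower against DBA. These shares are the background for every count that follows. The split depended on the scaling: 38.8% of the calls in NZO minus 129Ola were higher in NZO here, against 57.1% with the percentile taken over probes above background on all 20 arrays (common-probe scaling) and 44.7% after quantile normalization, which moved the median difference of all genes from -0.09 to 0.10 and -0.03.

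The difference also moved with the level of the gene. In NZO minus 129Ola the median was 0.98 over 777 genes at mean levels of -4 to -3, 0.43 from -3 to -2, -0.02 from -1 to 0 and -0.28 above 5. In NZO minus C3H the same bins had medians of 0.63, 0.02, -0.07 and -0.06. A dim gene that is modestly higher in NZO, or a bright gene that is modestly lower, thus lies near the middle of its level bin in NZO minus 129Ola. How much of this belongs to the liver and how much to the scan was not tested.

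**Figure D1:**
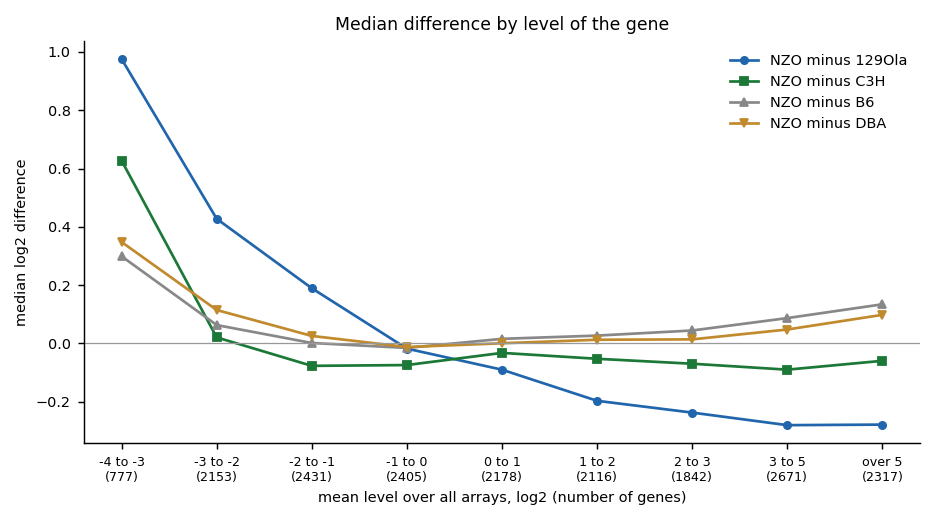
Median log2 difference of the genes tested (vertical axis) in bins of mean log2 level over all 20 arrays (horizontal axis, number of genes below each bin), for NZO minus 129Ola, C3H, B6 and DBA. The 129Ola line runs from 0.98 in the dimmest bin shown to -0.28 in the brightest, while the other lines stay between -0.09 and 0.13 above a level of -2.

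The 129Ola mice did not all match one another. The clock output gene Dbp, whose product drives the daily rhythm of many liver enzymes, had levels of 7.87, 7.73, 1.66 and 2.93 in 129Ola mice 4, 5, 7 and 9, against 1.13 to 2.08 in NZO, 2.29 to 3.10 in C3H, 0.63 to 4.16 in B6 and 1.27 to 5.79 in DBA. Arntl, which encodes the clock activator BMAL1 and peaks out of phase with Dbp, was at -0.33, -1.17, 2.64 and 2.55 in the same 129Ola mice and at 1.86 to 2.37 in NZO. Mice 4 and 5 thus stood apart from mice 7 and 9 in opposite ways for the 2 genes. The slides did not divide the mice in this way, since mouse 9 shared its slide with mice 4 and 5, and the labels used here give no time of day. Counts that lead a paragraph were therefore run again without mice 4 and 5 and without mice 7 and 9, an alternative chosen after seeing the data.

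Many of the genes with the largest differences were not well above background in 1 of the 2 strains. Whether the strains carry the same sequence under each probe was not examined, and the files place each probe in the genome without giving the part of the gene it lies in. Dct, a melanin-synthesis enzyme (probe at chr14:118412029-118412088, mm9 as in the files), was at 6.79, 6.36, 6.41 and 6.68 in NZO mice 3, 7, 9 and 11 and at -4.74, -4.78, -4.91 and -5.05 in 129Ola mice 4, 5, 7 and 9, all 4 not well above background. All NZO mice were far above all 129Ola mice, a difference of at least 619-fold (adjusted p = 1.38e-16). Bounds of this kind set the mean of the bright strain against the dimmest signal that counted as above background on the dim strain's arrays. Where some arrays of the dim strain were above background the fitted difference is given: 3 of the 4 129Ola arrays were for Cdc20, Cyp51, Mx1 and Slc4a1, 2 for Cx3cr1, Fgf21, H2-T24 and Nat8f5 and 1 for Hao2 and Mpo, and 3 of the 4 NZO arrays were for Lnx1, Spsb4 and Tbc1d4. C3H, B6 and DBA spanned 3.44 to 4.95, 2.97 to 3.27 and 5.92 to 6.24. C3H exceeded 129Ola at least 126-fold (adjusted p = 1.55e-15), and 129Ola alone was not well above background. A further Dct probe had a difference of 10.13 between NZO and 129Ola.

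Akr1c18, the hydroxysteroid dehydrogenase that inactivates progesterone (probe at chr13:4131895-4131954), showed the converse pattern. It was at 5.01, 4.77, 5.04 and 4.71 in NZO and at -3.14, -2.94, -3.41 and -3.44 in 129Ola, where no array was well above background. C3H was as low as 129Ola, at -3.22, -4.12, -2.67 and -2.61 with 1 array of 4 well above background, and B6 and DBA spanned -1.71 to 0.74 and -2.24 to -1.45. NZO was the only strain with a high level, at least 194-fold above 129Ola (adjusted p = 5.11e-11), with differences of 8.04 from C3H (adjusted p = 6.19e-11), 5.66 from B6 and 6.77 from DBA.

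Of the other genes higher in NZO than in each of the other strains, Cyp3a41b, a cytochrome P450 known for expression in female liver, was at 6.69, 6.27, 6.84 and 6.76 in NZO and at -0.90, -0.41, 0.94 and -0.75 in 129Ola. The groups did not overlap, with a difference of 6.92 (SE 0.49, adjusted p = 5.75e-09) and of 7.32 from C3H. Syt10, a vesicle calcium sensor of the synaptotagmin family, was at 3.19 to 4.23 in NZO, -0.43 to 0.34 in C3H and -3.47 to -2.86 in 129Ola, where it was not well above background on any array. NZO exceeded 129Ola at least 94.2-fold (adjusted p = 3.02e-11), and C3H lay between them. Trim34a, a member of an interferon-induced ubiquitin ligase family, was at 2.01 to 2.65 in NZO and -5.17 to -4.01 in 129Ola, at least 33.3-fold apart (adjusted p = 1.22e-12), though its further probe differed by only 2.01. Tiam2, an exchange factor for the GTPase Rac, exceeded 129Ola at least 25.7-fold (adjusted p = 2.62e-09).

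Genes lower in NZO than in every other strain included the antiviral GTPase Mx2, which was at -5.22, -4.91, -3.47 and -4.47 in NZO and 1.80, 1.31, 1.51 and 1.24 in 129Ola. Only 1 NZO array of 4 was well above background for it, so its NZO level was not measured on the other 3, and the fitted difference was -5.99 (SE 0.27, adjusted p = 2.36e-11), with -6.18 against C3H, -6.02 against B6 and -6.47 against DBA. Wfdc21, which encodes a small secreted protein with a WAP domain, had levels of 2.78, 3.21, 2.90 and 3.43 in NZO and 9.07, 8.92, 9.06 and 8.79 in 129Ola. It was bright in every strain but NZO, and the difference was -5.88 (SE 0.14, adjusted p = 4.11e-15). Cd207, the lectin langerin, was not well above background in NZO (-6.16 to -4.52) and was at -0.18 to 0.99 in 129Ola, at least 21.6-fold apart (adjusted p = 1.15e-10). Pole4, a subunit of DNA polymerase epsilon, was likewise not well above background in NZO and at least 13.7-fold higher in 129Ola (adjusted p = 3.07e-07). Cib3, a calcium-binding protein, was at -2.29 to -1.001 in NZO against 2.07 to 4.43 in 129Ola and 2.05 to 2.52 in C3H, a difference from 129Ola of -5.11 (adjusted p = 8.98e-09). The bile acid enzyme Cyp39a1 belongs here too and is described with its pathway.

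For other genes 129Ola differed from NZO and from C3H, which shares its software version. Gsta2, a glutathione transferase induced by NRF2, was at 3.44, 2.83, 2.86 and 3.29 in 129Ola, -2.26, -3.56, -3.62 and -2.80 in NZO and -2.45, -1.91, -2.10 and -3.002 in C3H. NZO and C3H overlapped, and the difference of -6.16 between NZO and 129Ola (adjusted p = 1.35e-10) stood beside -5.47 between C3H and 129Ola (adjusted p = 8.54e-10). The peptide transporter Slc15a2 was well above background in 129Ola only, among these 3 strains, at least 11.7-fold over NZO (adjusted p = 1.96e-06), and so was the odorant receptor gene Olfr1033, at least 21-fold (adjusted p = 5.18e-11). Lnx1, a ubiquitin ligase, was at -3.99 to -3.06 in NZO, -1.35 to -0.77 in C3H and 0.44 to 2.43 in 129Ola, and Spsb4, a SOCS-box protein, at -3.94 to -2.31, 0.54 to 1.15 and 1.19 to 2.02. Both passed in NZO minus 129Ola, at -4.86 and -4.76 (adjusted p = 8.26e-08 and 1.07e-09), and C3H lay between the other strains each time. In the other direction Apol10a, of the apolipoprotein L family, was at 2.20 to 3.16 in NZO, 0.47 to 2.57 in C3H and -5.04 to -3.07 in 129Ola, at least 44.4-fold between the first and the last (adjusted p = 9.49e-08). Nat8f5, an N-acetyltransferase, had a difference of 6.17 (adjusted p = 6.93e-09), with C3H 1.97 above 129Ola.

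**Figure D2:**
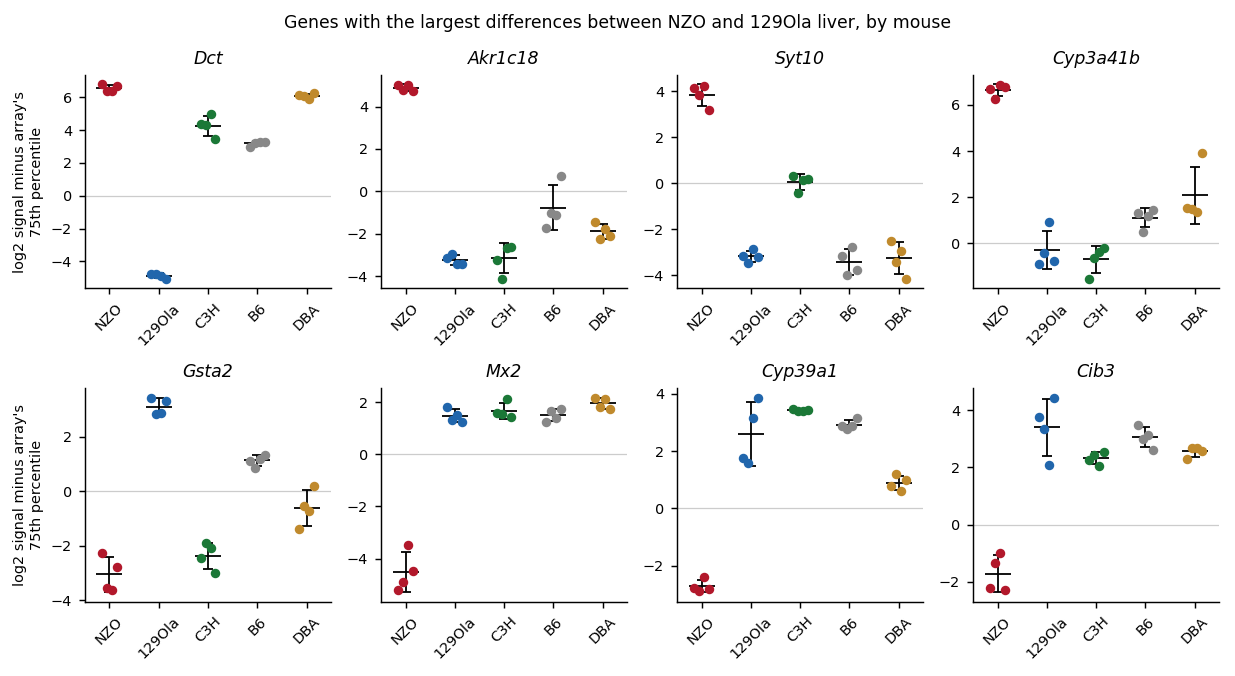
Log2 level of 8 genes (vertical axis, processed signal minus the array's 75th percentile) in every mouse of the 5 strains (horizontal axis); black bars are the mean and SD of 4 mice. Dct is low in 129Ola and Akr1c18 high in NZO, while Mx2, Cyp39a1 and Cib3 are low in NZO against all other strains.

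In another set of genes NZO differed from 129Ola and from C3H while no difference from B6 or DBA, nor between C3H and 129Ola, passed. A difference that did not pass does not show equal levels. B6 and DBA were not tested against 129Ola or C3H. The strongest were Igsf23, an immunoglobulin-family gene, Pglyrp1, a peptidoglycan-binding protein, and Otog, an inner-ear protein, which were lower in NZO than in 129Ola (adjusted p = 1.75e-07, 3.33e-07 and 0.00254). Igsf23 was well above background on 2 NZO arrays of 4 and Otog on 1, with fitted differences of -5.18 and -3.25, and Pglyrp1 was so on none, at least 10.4-fold below 129Ola. Pglyrp1 was at -5.05 to -4.59 in NZO and -5.27 to -3.47 in B6, but at -1.47 to -0.19 in 129Ola and -1.24 to -0.64 in C3H, with no overlap between these pairs of strains. The Schlafen gene Slfn8, the lipid-transfer protein Esyt3 and the melanocortin receptor accessory protein Mrap2 were the mirror image, not well above background on any 129Ola array and at least 3.92-fold, 3.23-fold and 1.63-fold higher in NZO (adjusted p = 3.78e-10, 2.98e-07 and 3.06e-04). Strain and software version cannot be told apart for these genes.

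Most genes of cholesterol synthesis were higher in NZO, and also in C3H, than in 129Ola. Of 26 genes on the array 25 were tested, and 21 were higher and 1 lower in NZO than in 129Ola, beside 21.9% and 34.5% of all genes, and 14 were higher by at least 2-fold, beside 11.4%. The median difference was 1.30. Against C3H none was higher (limma, also at an unadjusted p under 0.05, and 13 were lower at that level) and 10 were lower, beside 18.8% and 19.4% of all genes, with a median of -0.43. In turn 22 of the 25 were higher in C3H than in 129Ola, beside 14.5%, with a median of 1.90. Against B6 12 were higher and 1 lower in NZO and against DBA 4 were higher and 0 lower (limma, also 0 at an unadjusted p under 0.05), with medians of 0.54 and 0.40. Mean levels over the list were 2.50 to 3.02 in the 129Ola mice, 3.87 to 4.29 in NZO, 4.24 to 4.80 in C3H, 3.36 to 3.80 in B6 and 3.48 to 4.02 in DBA, so the 129Ola range lay below that of each other strain. Without 129Ola mice 4 and 5, and likewise without mice 7 and 9, 20 genes were higher and 1 lower.

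Squalene epoxidase, encoded by Sqle, makes the first oxygenated sterol precursor. Its levels were 4.82, 5.13, 5.25 and 4.18 in the NZO mice and 0.82, 0.25, 1.09 and 2.04 in the 129Ola mice, while C3H was at 5.67, 5.97, 5.26 and 5.97. All 4 129Ola mice were below every NZO and C3H mouse, by 3.79 (SE 0.34, adjusted p = 1.25e-07) against NZO and by 4.67 as C3H minus 129Ola (adjusted p = 1.41e-08). Cyp51, the lanosterol demethylase, was at 1.79, 1.65, 2.13 and 1.02 in NZO and -2.08, -2.64, -1.23 and -1.56 in 129Ola, a difference of 3.53 (SE 0.29, adjusted p = 3.66e-08), with -0.04 against C3H (adjusted p = 0.922). Mvd and Fdps, which make and join the isoprenoid units, differed by 2.98 and 2.25 (adjusted p = 1.33e-06 and 4.81e-06), and Nsdhl, a later sterol demethylation enzyme, by 2.33 (adjusted p = 1.79e-06). Dhcr7, which completes cholesterol, and the isomerase Idi1 differed by 1.83 and 1.57 (adjusted p = 7.69e-07 and 2.35e-06).

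Srebf2, the transcription factor that drives the pathway, was higher by 0.71 (adjusted p = 4.76e-04). Hmgcs1, an early enzyme of the pathway, was at 5.79, 5.67, 5.92 and 4.78 in NZO, 3.82, 3.63, 3.84 and 4.003 in 129Ola and 6.40, 6.92, 6.11 and 6.66 in C3H, a difference of 1.72 from 129Ola (SE 0.23, adjusted p = 9.24e-06). Its promoter is shown because it was the only promoter, among 17 sterol genes with one in the table, that held the letters TCACNCCAC of a sterol element on either strand within 250 bases before the gene start, and so 5.88% of them, against 1.05% of 32851 RefSeq promoters. The sequence is from RefSeq (GRCm38.p6, chr13:119690101-119690350, plus strand), 5′ to 3′, with the match in capitals.
Hmgcs1: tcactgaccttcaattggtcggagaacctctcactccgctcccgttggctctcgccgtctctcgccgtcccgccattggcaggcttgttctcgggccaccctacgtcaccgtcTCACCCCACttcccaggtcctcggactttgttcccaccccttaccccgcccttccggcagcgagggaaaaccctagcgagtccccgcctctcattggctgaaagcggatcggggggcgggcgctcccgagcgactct
A match is a description of letters and no evidence of binding, and the other promoters may hold the element in other letters or places.

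**Figure D3:**
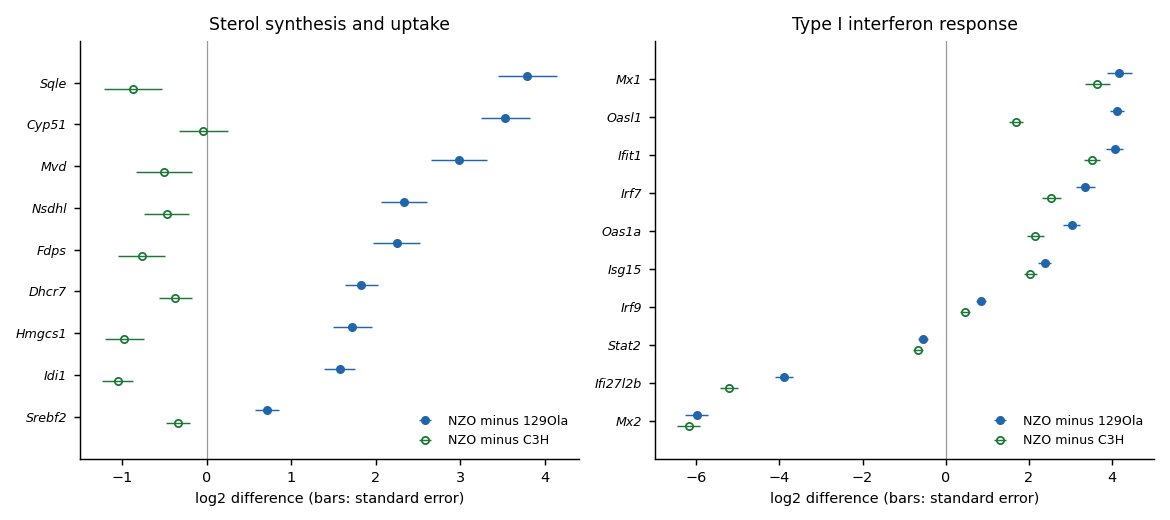
Log2 difference with its standard error for the genes that the text names from the sterol list (left) and from the type I interferon list (right), as NZO minus 129Ola (filled) and NZO minus C3H (open), which share the NZO arrays. Sterol genes lie to the right of 0 against 129Ola and mostly to the left against C3H, while most interferon genes lie to the right in both, apart from Mx2, Ifi27l2b and Stat2.

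Fatty acid synthesis showed a weaker form of the sterol pattern. Of 22 genes tested 9 were higher and 3 lower in NZO than in 129Ola, beside 21.9% and 34.5% of all genes, with a median of 0.60, while 1 was higher and 9 lower than in C3H and 18 were higher in C3H than in 129Ola. Acacb, the carboxylase whose malonyl-CoA restrains mitochondrial fatty acid import, was at 4.54, 4.19, 4.43 and 4.41 in NZO and 1.30, 1.38, 2.15 and 1.93 in 129Ola with no overlap, a difference of 2.70 (SE 0.31, adjusted p = 1.81e-06). The elongases Elovl3 and Elovl6 differed by 1.97 and 1.60 (adjusted p = 0.00131 and 8.66e-04). Scd1, the stearoyl-CoA desaturase, was at 6.59, 5.26, 6.21 and 6.23 in NZO and 3.42, 3.32, 4.18 and 6.38 in 129Ola, where mouse 9 lay within the NZO range. Its difference of 1.75 (adjusted p = 0.00913) was 0.79 without 129Ola mice 4 and 5 (adjusted p = 0.242). Fasn, the fatty acid synthase, was at 0.90 to 1.75 and -0.09 to 1.15 and did not pass (difference 0.69, SE 0.43, adjusted p = 0.182). Pklr, the liver pyruvate kinase that feeds the pathway, was higher in NZO by 1.38 against 129Ola (adjusted p = 1.01e-04) and by 0.99 against C3H (adjusted p = 0.00287).

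The transcription factors of fat synthesis were lower in NZO. Srebf1, which encodes SREBP-1, was at 1.23, 0.68, 0.91 and 1.15 in NZO, 1.53, 2.77, 1.36 and 2.02 in 129Ola and 2.64, 2.84, 2.28 and 2.77 in C3H, so that all NZO mice lay lowest, with differences of -0.93 against 129Ola (SE 0.25, adjusted p = 0.00458), -1.64 against C3H, -0.77 against B6 and -1.06 against DBA (adjusted p = 6.83e-05, 0.0379 and 0.00532). With slide as a random block the difference from 129Ola was -0.79 (adjusted p = 0.0547). Mlxipl, which encodes the glucose sensor ChREBP, differed by -0.87 (adjusted p = 8.75e-05), its further probe by -0.36.

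Genes of triglyceride handling and lipid droplets were mixed. Of 24 triglyceride genes 8 were higher and 9 lower in NZO than in 129Ola, and of 19 droplet and steatosis genes 1 was higher and 8 lower, beside 21.9% and 34.5% of all genes. The triglyceride counts were 9 higher and 4 lower with the common-probe scaling, 8 and 4 after quantile normalization and 8 and 2 after normexp. Ces1g, a carboxylesterase that acts on triglyceride, was at 3.69, 3.74, 4.10 and 3.53 in NZO and 0.83, 0.93, 0.44 and 0.41 in 129Ola, a difference of 3.11 (SE 0.18, adjusted p = 3.15e-10), with C3H 2.10 above 129Ola (adjusted p = 7.95e-08). Lpin2, a phosphatidate phosphatase, was lower in NZO, at 1.13 to 1.38 against 2.50 to 3.67 (difference -1.72, adjusted p = 1.20e-05). Pnpla3, the droplet lipase whose human variant is tied to fatty liver, was at -0.93, -1.77, -1.23 and -0.70 in NZO and -3.08, -2.95, -4.29 and -4.85 in 129Ola. No 129Ola array was well above background for it, and NZO was at least 2.94-fold higher (adjusted p = 0.0044). It did not pass after normexp (0.23, adjusted p = 0.364) or without 129Ola mice 7 and 9 (1.85, adjusted p = 0.0796). Plin2, the main coat protein of liver droplets, had levels of 7.87, 7.81, 8.18 and 7.11 in NZO and 6.74, 6.92, 7.60 and 7.88 in 129Ola. The groups overlapped and the difference of 0.45 (SE 0.24) did not pass (adjusted p = 0.115), but it did at 0.67 after quantile normalization (adjusted p = 0.0305), at 0.66 without NZO mouse 11 (adjusted p = 0.0226), at 0.65 without 129Ola mouse 9 (adjusted p = 0.0261) and at 0.91 without 129Ola mice 7 and 9 (adjusted p = 0.00455).

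The droplet dehydrogenases separated the strains differently. Hsd17b11 was at 5.00 to 5.61 in NZO and 6.76 to 7.17 in 129Ola (difference -1.71, adjusted p = 3.44e-07). Hsd17b13 was at 5.29 to 5.64 in NZO and 6.04 to 6.54 in 129Ola (-0.79, adjusted p = 1.24e-04), but at only 0.84 to 1.24 in C3H, 4.46 below NZO as NZO minus C3H (adjusted p = 1.04e-13). Cd36, a fatty acid transporter, was lower in NZO by a difference of -0.85 (adjusted p = 0.00236). Vldlr, a receptor for triglyceride-rich lipoproteins, was at 0.62, -0.12, 0.80 and 1.05 in NZO and 1.92, 1.60, 1.24 and 1.61 in 129Ola, against -2.51, -2.92, -2.84 and -2.20 in C3H. NZO was thus below 129Ola by a difference of -1.01 (adjusted p = 8.38e-04) and above C3H, B6 and DBA by 3.20, 2.96 and 2.67 (adjusted p = 4.10e-09, 1.68e-08 and 5.27e-08). A further Vldlr probe had a difference from 129Ola of -0.22.

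Fatty acid oxidation and PPARA targets were lower in NZO than in 129Ola. Of 37 genes tested 23 were lower and 1 higher, beside 34.5% and 21.9% of all genes, with a median of -0.50; 8 were lower by at least 2-fold, beside 6.36%. Many of these genes are bright, where all genes together had a median near -0.28. Against C3H 6 were higher and 9 lower with a median of 0.00 on this scale, and 22 were lower in C3H than in 129Ola, beside 24.6%. Without 129Ola mice 4 and 5 the counts in NZO minus 129Ola were 21 lower and 1 higher, and without mice 7 and 9 19 and 2. They were 18 and 3 with the common-probe scaling (median -0.31), 17 and 3 after quantile normalization (-0.35) and 16 and 3 after normexp (-0.25). Acot1, the acyl-CoA thioesterase, was at 2.90, 1.42, 2.29 and 1.64 in NZO and 3.02, 3.52, 4.37 and 5.13 in 129Ola, a difference of -1.95 (SE 0.40, adjusted p = 5.11e-04). The peroxisomal thiolase Acaa1b, the peroxisomal bifunctional enzyme Ehhadh and the mitochondrial dehydrogenase Acadm differed by -1.30, -1.02 and -1.17 (adjusted p = 1.39e-06, 3.41e-04 and 6.50e-06), with no overlap between the strains.

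The Cyp4a fatty acid hydroxylases, classical PPARA targets, varied widely from mouse to mouse. Cyp4a14 was at 3.91, 1.89, 2.69 and 1.63 in NZO, 3.70, 4.26, 6.51 and 5.34 in 129Ola and -4.20, -2.78, -0.64 and -3.24 in C3H. NZO and 129Ola overlapped, with a difference of -2.42 (SE 0.77, adjusted p = 0.0135) that did not pass without 129Ola mouse 7 (-1.90, adjusted p = 0.0518) or without mice 7 and 9 (-1.45, adjusted p = 0.188), while NZO exceeded C3H by 5.25 (adjusted p = 4.98e-05). Cyp4a10 and Cyp4a31, whose probes moved together mouse by mouse as near-identical genes can, differed by -1.60 and -1.65 (adjusted p = 0.00535 and 0.0033). Cyp4a10 did not pass without mice 7 and 9 (-1.26, adjusted p = 0.054). For Cyp4a31 further probes gave 0.04 and 0.33. Ppara itself was lower by a difference of -0.49 (adjusted p = 0.00802), which did not pass after quantile normalization (-0.29, adjusted p = 0.127). The coactivator gene Ppargc1a differed by -0.92 (adjusted p = 0.00109), its further probe by -0.06. Cpt1a, the gate of mitochondrial fatty acid import, was at 5.32 to 6.02 and 5.63 to 6.25 and did not pass (-0.37, SE 0.18, adjusted p = 0.0988); without 129Ola mouse 7 it did (-0.51, adjusted p = 0.0239), as it did without NZO mouse 9 (-0.47, adjusted p = 0.0496), while its further probe gave 0.44. Fabp1, the abundant cytosolic fatty acid carrier, was the 1 gene higher in NZO, by 0.68 (adjusted p = 5.59e-05).

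**Figure D4:**
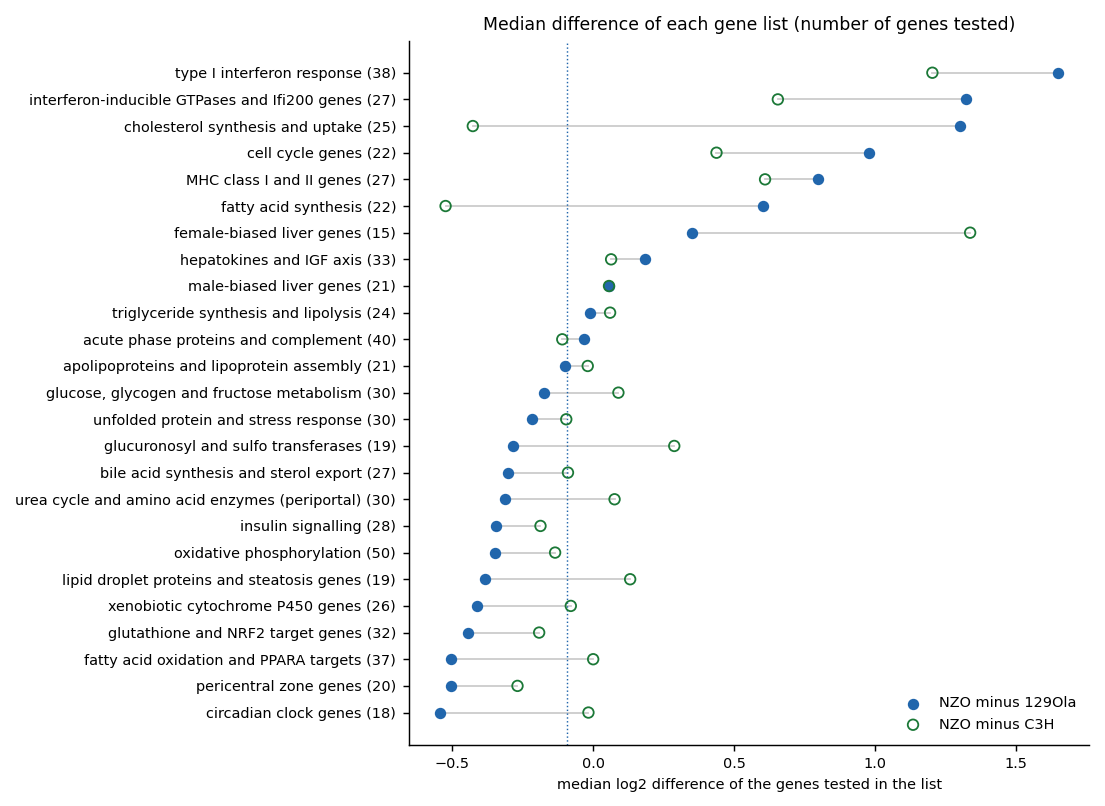
Median log2 difference (horizontal axis) of the genes tested in each pathway list (vertical axis, number of genes in brackets), as NZO minus 129Ola (filled) and NZO minus C3H (open), which share the NZO arrays; the dotted line is the median of all genes in NZO minus 129Ola, -0.09. The type I interferon list lies highest against 129Ola, at 1.65, and the female-biased list against C3H, at 1.34, while the sterol list is at 1.30 against 129Ola and -0.43 against C3H.

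Transcripts of several transporters in the list of bile acid synthesis and sterol export were lower in NZO than in 129Ola. Of 27 genes of bile acid synthesis and sterol export 12 were lower and 3 higher than in 129Ola, beside 34.5% and 21.9% of all genes. The median was -0.30, and 7 were lower by at least 2-fold, beside 6.36%. With the common-probe scaling 10 were lower and 4 higher, and after normexp 7 and 4, with a median of -0.03. Against C3H 7 were lower and 3 higher. Cyp39a1, which hydroxylates oxysterols on the way to bile acids (probe at chr17:43887735-43887794), was at -2.77, -2.87, -2.41 and -2.81 in NZO, 1.76, 1.57, 3.16 and 3.87 in 129Ola and 3.48, 3.39, 3.40 and 3.44 in C3H. NZO mice lay below every other mouse, with differences of -5.30 from 129Ola (SE 0.35, adjusted p = 2.09e-09), -6.14 against C3H, -5.62 against B6 and -3.59 against DBA. Abcg5 and Abcg8 form the canalicular sterol exporter. Abcg5 was at 4.57, 4.20, 4.83 and 4.12 in NZO and 6.93, 7.28, 6.17 and 7.33 in 129Ola and Abcg8 at -0.04, -0.58, 0.38 and -1.15 and 1.76, 1.94, 1.15 and 2.38, without overlap, differences of -2.50 and -2.16 (adjusted p = 1.68e-07 and 1.77e-05). C3H minus 129Ola was -1.57 and -1.85 (adjusted p = 5.73e-05 and 1.80e-04), so 129Ola was the high strain of these 3.

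Abcb11, the bile salt export pump, was at 5.66 to 6.08 in NZO and 7.24 to 7.66 in 129Ola, a difference of -1.49 (adjusted p = 4.15e-08), and it was also lower than in C3H, B6 and DBA, at -1.098, -1.12 and -1.01. Abcc3, a basolateral exporter of conjugates, was at 2.38 to 2.46 in NZO and 4.13 to 4.77 in 129Ola (-2.03, adjusted p = 4.27e-08), with -2.02 against C3H. The organic anion importer Slco1a4 differed by -2.21 (adjusted p = 1.51e-06) and the nuclear receptor Nr5a2 by -1.71 (adjusted p = 7.04e-08), though a further Nr5a2 probe gave -0.20. Cyp7a1, the rate-limiting enzyme of bile acid synthesis, was at 2.27, 1.95, 2.23 and 3.33 in NZO and 4.32, 5.09, 2.33 and 1.097 in 129Ola and did not pass (-0.76, SE 0.75, adjusted p = 0.395). Its 129Ola values divided like the clock genes: the difference was -2.26 against mice 4 and 5 alone (adjusted p = 0.0123) and 0.73 against mice 7 and 9 alone (adjusted p = 0.414). Cyp8b1, which makes cholic acid, was higher in NZO by 0.85 (adjusted p = 0.00762), but by 0.41 without mice 4 and 5 (adjusted p = 0.206).

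Of 21 apolipoprotein and lipoprotein assembly genes 4 were higher and 9 lower in NZO than in 129Ola, or 9 and 9 with the common-probe scaling and 9 and 7 after normexp. Apoc1, an abundant small apolipoprotein, was higher in NZO by 1.03 against 129Ola and 0.69 against C3H (adjusted p = 5.08e-07 and 6.65e-05). Scarb1, the HDL receptor, was at 3.46, 3.51, 3.39 and 3.17 in NZO and 4.45, 4.30, 5.02 and 4.73 in 129Ola and was lower in NZO than in every strain, at -1.24, -1.13, -1.34 and -1.40 against 129Ola, C3H, B6 and DBA (adjusted p = 3.98e-05, 1.79e-04, 5.19e-05 and 2.81e-05). Lpl, the lipoprotein lipase that adult liver normally makes little of, differed by -1.58 (adjusted p = 8.58e-04), Apoa4 by -1.25 (adjusted p = 6.21e-04) and Apob, the structural protein of VLDL, by -0.55 (adjusted p = 4.95e-05).

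**Figure D5:**
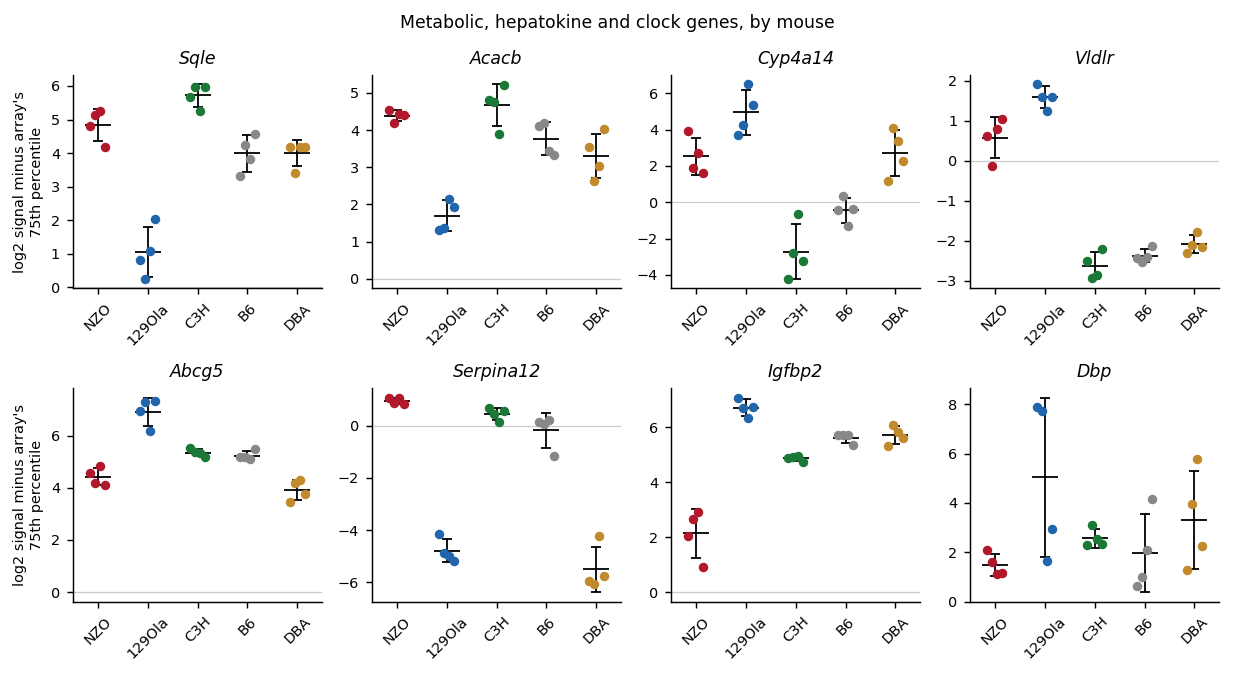
Log2 level of 8 genes (vertical axis, processed signal minus the array's 75th percentile) in every mouse of the 5 strains (horizontal axis); black bars are the mean and SD of 4 mice. Sqle is low in all 129Ola mice, Vldlr is high in NZO and 129Ola, Igfbp2 is lowest in NZO, and the 129Ola mice split into 2 pairs for Dbp.

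Of 33 hepatokine and IGF axis genes 10 were higher and 8 lower in NZO than in 129Ola (8 and 9 of 31 with probes above background in both strains), and a few differed far more than the rest. Serpina12, which encodes the insulin-sensitising secreted protein vaspin, was at 1.06, 0.88, 1.06 and 0.82 in NZO and -4.16, -4.85, -4.98 and -5.18 in 129Ola, where no array was well above background, at least 12.7-fold apart (adjusted p = 1.07e-09). C3H (0.14 to 0.68) was close to NZO, and DBA (-6.06 to -4.21) was as low as 129Ola. Igfbp2, an IGF-binding protein under leptin and insulin control, was at 2.03, 2.68, 2.93 and 0.90 in NZO and 7.09, 6.71, 6.35 and 6.74 in 129Ola, with C3H at 4.88, 4.92, 4.97 and 4.74. All NZO mice lay below all mice of every other strain, with differences of -4.59 from 129Ola (SE 0.31, adjusted p = 2.62e-09), -2.74 against C3H, -3.49 against B6 and -3.58 against DBA (adjusted p = 2.24e-06, 1.58e-07 and 1.02e-07). Igfbp1, repressed by insulin, was lower in NZO at 3.31 to 4.46 against 5.09 to 7.68 (-2.15, adjusted p = 0.00119). Igf1 itself was higher than in every strain, by 0.66, 0.39, 0.84 and 0.58 against 129Ola, C3H, B6 and DBA (adjusted p = 3.27e-05, 0.00501, 6.13e-06 and 2.81e-04). Fgf21, a fasting and stress hormone, was at 0.40, 0.83, 1.04 and -1.53 in NZO and -2.76, -4.88, 0.72 and -1.55 in 129Ola, and its difference of 2.31 (adjusted p = 0.028) was lost without 129Ola mouse 4 (2.09, adjusted p = 0.0699), 5 (1.39, adjusted p = 0.12) or both (0.60, adjusted p = 0.525) and without NZO mouse 3 (2.24, adjusted p = 0.055), 7 (2.09, adjusted p = 0.0709) or 9 (2.02, adjusted p = 0.0751).

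Insulin signalling genes were lower in NZO more often than higher. Of 28 tested 13 were lower and 3 higher than in 129Ola, beside 34.5% and 21.9% of all genes, with a median of -0.34, and 4 were lower and 1 higher than in C3H. Trib3, an AKT inhibitor induced by stress, was at 1.55, 1.04, 1.32 and 1.28 in NZO and 4.14, 3.07, 3.60 and 4.02 in 129Ola (-2.41, SE 0.29, adjusted p = 3.46e-06), and C3H was -2.12 from 129Ola. Irs1, the adaptor of the insulin receptor, and Foxo1, the transcription factor that insulin restrains, differed by -0.96 and -1.01 (adjusted p = 5.07e-04 and 3.07e-05), though a further Irs1 probe gave -0.13. Tbc1d4, an AKT substrate in glucose transport, was at -4.28 to -2.50 in NZO and -1.96 to -1.30 in 129Ola, with differences of -1.47 from 129Ola and -1.76 from C3H (adjusted p = 2.77e-04 and 9.40e-05).

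Of 30 genes of glucose, glycogen and fructose metabolism 4 were higher and 8 lower in NZO than in 129Ola, but 9 and 6 with the common-probe scaling, 8 and 6 after quantile normalization and 10 and 3 after normexp. Ppp1r3b, the glycogen-targeting subunit of protein phosphatase, was higher in NZO by 1.27 against 129Ola and 1.43 against C3H (adjusted p = 8.86e-06 and 4.16e-06). Tkfc, a fructose pathway kinase, was higher by 0.99 (adjusted p = 0.00417), or 0.79 without 129Ola mice 4 and 5 (adjusted p = 0.055). Pck1, which controls gluconeogenesis, was lower, at 7.05 to 7.49 against 7.72 to 8.96 (-0.97, adjusted p = 0.00852), as was the glycolytic regulator Pfkfb2 (-1.15, adjusted p = 0.00151).

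Detoxification genes that passed were mostly lower in NZO than in 129Ola. Of 26 xenobiotic cytochrome P450 genes tested 0 were higher and 14 lower (limma; 1 and 14 at an unadjusted p under 0.05), beside 21.9% and 34.5% of all genes, although 5 were higher after quantile normalization. Against C3H 8 were higher and 9 lower, beside 18.8% and 19.4% of all genes, with a median of -0.08. Against B6 7 were higher and 7 lower. In turn 14 of the 26 were lower in C3H than in 129Ola, beside 24.6%. Nr1i3, which encodes the xenobiotic receptor CAR, was at 2.59, 2.75, 3.20 and 2.72 in NZO and 6.02, 5.82, 5.80 and 5.31 in 129Ola, a difference of -2.92 (SE 0.18, adjusted p = 7.35e-10). It was also lower than in C3H, B6 and DBA, at -1.72, -0.99 and -1.64 (adjusted p = 8.38e-07, 5.16e-04 and 1.95e-06). The drug-metabolising Cyp2c37 was at 1.84 to 2.29 against 3.38 to 4.90 (-2.13, adjusted p = 5.91e-07) and Cyp3a25 at 4.40 to 5.18 against 6.54 to 6.88 (-1.82, adjusted p = 9.81e-07). Cyp2c38 differed by -2.68 (adjusted p = 6.42e-11) on its brighter probe and 0.44 on the other, which near-identical neighbours may share.

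Of 32 glutathione and NRF2 target genes 17 were lower and 2 higher in NZO than in 129Ola, and 6 were higher after quantile normalization. Against C3H 8 were lower and 5 higher, and in C3H minus 129Ola 14 were lower and 2 higher. Gstm2 was at 2.24, 1.79, 1.69 and 2.04 in NZO and 5.10, 5.03, 5.68 and 5.37 in 129Ola, and Gstm6 at 1.46, 1.78, 1.72 and 1.37 and 4.65, 4.44, 4.53 and 5.02. Both glutathione transferases were lower in NZO than in each other strain: Gstm2 differed by -3.36, -3.23, -3.05 and -3.39 from 129Ola, C3H, B6 and DBA, and Gstm6 by -3.08, -3.50, -3.78 and -4.39, with every adjusted p at or below 6.78e-10. Gstt2 showed the Gsta2 pattern, at 1.70, 1.21, 1.35 and 1.69 in NZO, 5.19, 4.97, 4.61 and 4.63 in 129Ola and 1.89, 2.54, 2.15 and 2.19 in C3H, so that 129Ola was high (NZO minus 129Ola -3.36, adjusted p = 1.74e-10; C3H minus 129Ola -2.66, adjusted p = 5.87e-09). Among conjugating transferases Sult1e1, which inactivates estrogens and is known to rise in diabetic liver, was at -1.15, -3.19, -3.54 and -1.47 in NZO and 1.36, 2.18, 1.69 and 2.05 in 129Ola (-4.16, adjusted p = 6.86e-06) and did not differ past the threshold from C3H (0.91, adjusted p = 0.192). Of 19 glucuronosyl and sulfo transferases 3 were higher and 6 lower, but 7 and 4 with the common-probe scaling, 7 and 5 after quantile normalization and 8 and 5 after normexp. Sult1a1 was lower in NZO, at -1.88 against 129Ola and -1.50 against C3H (adjusted p = 5.74e-07 and 1.29e-05). Ugt3a1 was higher by 2.74 and 2.53 (adjusted p = 1.91e-08 and 7.53e-08), as was Ugt2b37, by 1.099 against 129Ola (adjusted p = 8.01e-04).

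Some genes known as female-biased in mouse liver were higher in these male NZO mice. Of 20 genes on the array 15 were tested, and 7 were higher and 3 lower in NZO than in 129Ola, all 7 by at least 2-fold (beside 11.4%). Against C3H 9 were higher and 1 lower, against B6 8 and 2 (beside 10.8% and 7.99%) and against DBA 5 and 3. The direction of the list in NZO minus 129Ola turned with the processing: after normexp 4 were higher and 5 lower, and of the 7 genes with probes above background in both strains 2 were higher and 3 lower, with a median of -0.48 in place of 0.35. Of 21 male-biased genes 6 were higher and 5 lower than in 129Ola, but 10 and 3 with the common-probe scaling or quantile normalization and 10 and 2 after normexp. Besides Cyp3a41b, the P450 gene Cyp3a16 was at 6.93, 6.35, 7.09 and 6.92 in NZO and 1.61, 2.08, 3.39 and 1.87 in 129Ola (4.58, SE 0.45, adjusted p = 3.44e-07), and Cyp3a44 exceeded 129Ola at least 21.2-fold (adjusted p = 1.04e-06). These Cyp3a genes are near-identical and 1 transcript may light several probes. Hao2, a peroxisomal hydroxyacid oxidase outside that family, was at 0.98, 0.73, 1.76 and 0.87 in NZO and -4.33, -4.47, -4.24 and -1.02 in 129Ola, a fitted difference of 4.60 (adjusted p = 2.60e-05), with 5.31 against C3H and 4.44 against DBA. Only 1 array of 4 was well above background for it in each of 129Ola, C3H and DBA and none in B6, which NZO exceeded at least 36.8-fold. Cyp2b9 exceeded 129Ola at least 2.13-fold (adjusted p = 2.80e-06), or 0.15 on the log2 scale after normexp (adjusted p = 0.281). Cyp2a4, also female-biased, was lower, at -2.11 (adjusted p = 9.39e-06). Of the male-biased genes Susd4, a complement regulator, was at -0.14, 0.85, -0.01 and -0.16 in NZO and 5.37, 5.09, 4.44 and 4.22 in 129Ola and was low in NZO against every strain (-4.65, -4.51, -3.55 and -3.96, with an adjusted p of 3.34e-10 against 129Ola).

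Most genes of the type I interferon response were higher in NZO than in 129Ola and than in C3H. Of 40 genes on the array 38 were tested, and 31 were higher and 3 lower than in 129Ola, beside 21.9% and 34.5% of all genes, 21 of them higher by at least 2-fold, beside 11.4%. The median was 1.65. Against C3H 30 were higher and 3 lower, with a median of 1.20, and C3H minus 129Ola had a median of 0.36 with 16 higher and 3 lower. Against B6 15 were higher and 4 lower and against DBA 21 and 2, with medians of 0.36 and 0.53. Mean levels over the list were 2.22 to 2.40 in NZO, 0.76 to 1.17 in 129Ola, 1.17 to 1.62 in C3H, 2.14 to 2.54 in B6 and 1.98 to 2.17 in DBA. 129Ola and C3H overlapped on that mean, since 129Ola mouse 4 lay just above C3H mouse 2, and so did NZO and B6. All mice of NZO, B6 and DBA lay above all mice of 129Ola and C3H on it. The list mean thus divided the strains by software version, which cannot be told apart from strain here. Without 129Ola mice 4 and 5 30 genes were higher and 3 lower, and without mice 7 and 9 29 and 3. After normexp the median was 1.09.

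Among the effectors Mx1, an antiviral GTPase, was at 2.30, 2.33, 2.20 and 2.32 in NZO and -0.74, -1.99, -2.95 and -1.83 in 129Ola (4.17, SE 0.30, adjusted p = 6.46e-09). C3H was at -1.44, -1.46, -1.34 and -1.17, 3.64 below as NZO minus C3H (adjusted p = 5.41e-08), so all NZO mice exceeded both strains. Oasl1, a regulator of IRF7 translation, was at 4.497, 4.20, 4.19 and 4.93 and 0.64, 0.19, 0.37 and 0.16 (4.11, SE 0.17, adjusted p = 7.62e-12), with C3H 2.44 above 129Ola. Ifit1, which binds foreign RNA, was at 2.47, 1.87, 2.06 and 2.56 in NZO and -1.22, -2.25, -1.69 and -2.09 in 129Ola (4.06, SE 0.20, adjusted p = 4.86e-11). Isg15, a ubiquitin-like modifier, was at 6.16, 6.07, 6.10 and 6.06 and 3.93, 3.61, 3.93 and 3.43, higher in NZO than in each strain by 2.37, 2.03, 1.02 and 0.96 (129Ola, C3H, B6, DBA; adjusted p = 1.87e-09, 1.75e-08, 9.26e-05 and 1.46e-04). Oas1a, a sensor of double-stranded RNA, differed by 3.02 (adjusted p = 4.20e-09). Against this trend Mx2, described above, and Ifi27l2b were low in NZO. Ifi27l2b, a mitochondrial interferon-induced protein, was not well above background on any NZO array (-5.98 to -5.57) and was at -2.31 to -1.50 in 129Ola, at least 4.08-fold higher there (adjusted p = 3.02e-10).

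Among the regulators Irf7, which amplifies the response, was at 3.27, 2.78, 2.77 and 3.09 in NZO and 0.15, -0.39, -0.31 and -0.96 in 129Ola (3.36, adjusted p = 3.55e-09), with 2.53 against C3H. Irf9, of the ISGF3 complex, differed by 0.84 (adjusted p = 1.57e-05). Stat2 was lower in NZO, at 3.49 to 3.999 against 4.10 to 4.505 (-0.56, adjusted p = 0.00102), and -0.66 against C3H (adjusted p = 4.13e-04).

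The interferon-inducible GTPases and the Ifi200 DNA sensors were mostly higher in NZO than in 129Ola, with 22 of 27 higher and 2 lower, and 16 and 2 against C3H, with medians of 1.32 and 0.65. Against B6 9 were higher and 8 lower, with a median of 0.26, and against DBA 7 and 0 (limma; 2 lower at an unadjusted p under 0.05). Gbp6 was at 3.59, 3.04, 3.51 and 3.04 in NZO and -0.82, -1.41, -0.73 and -1.45 in 129Ola (4.40, SE 0.22, adjusted p = 5.51e-11) and Tgtp2 at 5.57, 5.41, 5.42 and 5.32 and 2.12, 1.89, 1.62 and 1.84 (3.57, SE 0.27, adjusted p = 1.24e-08). C3H lay between the other 2 strains for each. The 2 lower genes were Ifi200 members. Mndal was not well above background in NZO and was at -0.12, -0.39, 0.41 and -0.14 in 129Ola, at least 14.8-fold higher (adjusted p = 1.11e-07). Ifi203 was at -3.28, -1.76, -1.49 and -2.26 against 2.13, 1.94, 2.44 and 2.33 (-4.41, adjusted p = 1.44e-09). Neither gene passed against DBA, with NZO minus DBA at 0.31 and -0.21 (adjusted p = 0.685 and 0.688), and further Ifi203 probes gave -0.92 and -0.39.

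The letters GAAANNGAAA of the interferon element, on either strand within 250 bases before a gene start, stood in 2.98% of 32851 RefSeq promoters. Of the interferon genes 26 of 38 had a promoter in the table and 11 of these (42.3%) held the letters in at least 1 promoter, and of the GTPase and Ifi200 genes 15 of 18 (83.3%) did, including Mndal and Ifi203, which were low in NZO. The promoters shown are those of 2 interferon genes with large differences that hold the letters and of the highest and lowest such GTPase or Ifi200 gene. They are RefSeq sequences (GRCm38.p6) at chr19:34640639-34640888 (plus strand, Ifit1), chr5:120907526-120907775 (minus, Oas1a), chr11:49064213-49064462 (minus, Tgtp2) and chr1:173880188-173880437 (minus, Mndal), 5′ to 3′ in the direction of the gene, with matches in capitals. Capitals read TTTC first where the match is on the other strand, and overlapping matches run together.
Ifit1: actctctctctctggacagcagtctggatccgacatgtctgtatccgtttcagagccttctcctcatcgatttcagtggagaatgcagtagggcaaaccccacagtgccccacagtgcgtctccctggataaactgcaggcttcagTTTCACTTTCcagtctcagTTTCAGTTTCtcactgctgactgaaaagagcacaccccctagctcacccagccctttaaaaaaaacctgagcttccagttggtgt
Oas1a: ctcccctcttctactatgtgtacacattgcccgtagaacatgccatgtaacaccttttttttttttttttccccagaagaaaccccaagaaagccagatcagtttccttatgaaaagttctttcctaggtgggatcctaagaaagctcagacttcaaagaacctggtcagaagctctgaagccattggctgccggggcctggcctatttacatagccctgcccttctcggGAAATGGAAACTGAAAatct
Tgtp2: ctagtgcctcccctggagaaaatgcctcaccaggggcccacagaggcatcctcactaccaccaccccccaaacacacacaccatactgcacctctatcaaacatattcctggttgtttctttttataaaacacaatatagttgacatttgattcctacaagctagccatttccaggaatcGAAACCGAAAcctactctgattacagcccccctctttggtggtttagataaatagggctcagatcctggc
Mndal: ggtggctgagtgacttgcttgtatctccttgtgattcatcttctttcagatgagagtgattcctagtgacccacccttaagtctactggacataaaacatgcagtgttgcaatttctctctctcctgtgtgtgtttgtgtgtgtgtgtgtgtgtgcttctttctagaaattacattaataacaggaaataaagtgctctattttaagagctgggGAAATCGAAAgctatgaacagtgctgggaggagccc
All 4 promoters hold the letters, while Mndal was at background in NZO and Ifit1 and Tgtp2 were bright there. The sequences are those of the reference strain and not of NZO or 129Ola.

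Of 27 MHC and antigen-processing genes tested 16 were higher and 6 lower in NZO than in 129Ola, and 18 were higher and 1 lower than in C3H. The liver-secreted class I gene H2-Q10 was at 9.31, 9.05, 9.17 and 9.11 in NZO and 7.17, 7.08, 7.92 and 7.26 in 129Ola (1.80, adjusted p = 1.20e-08) and H2-T24 at 0.10 to 0.36 and -3.18 to -2.62 (3.11, adjusted p = 5.24e-11). The common light chain B2m and the peptide-loading genes Psmb8 and Tap1 were higher by 0.83, 1.75 and 1.51 (adjusted p = 1.23e-06, 1.16e-06 and 1.25e-07). Of the class II genes, which antigen-presenting cells express, H2-Ab1 and H2-Aa were lower in NZO. H2-Ab1 was at 2.51, 2.87, 2.35 and 2.15 against 5.96, 5.62, 5.14 and 5.62 (-3.12, adjusted p = 2.06e-07), H2-Aa differed by -2.36 (adjusted p = 8.22e-05) and the invariant chain Cd74, which is not part of the MHC locus, by -1.19 (adjusted p = 0.00143). Against C3H, where H2-Aa was not well above background on any array, the bound was 8.3-fold in favour of NZO (adjusted p = 2.52e-08). H2-Q1 was not well above background in NZO and at least 5.17-fold higher in 129Ola (adjusted p = 5.06e-08).

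Of 40 acute phase and complement genes 5 were higher and 8 lower in NZO than in 129Ola, but 15 and 5 with the common-probe scaling, 12 and 7 after quantile normalization and 19 and 3 after normexp. A few differed strongly. Mbl2, a lectin of the complement system, was at 9.40, 9.14, 9.28 and 9.19 in NZO, 5.33, 5.27, 6.37 and 5.58 in 129Ola and 8.60, 8.61, 8.62 and 8.64 in C3H, so 129Ola was low (3.62, SE 0.16, adjusted p = 2.32e-11; C3H minus 129Ola 2.98, adjusted p = 2.60e-10). Serpina3m, an acute-phase protease inhibitor, was higher in NZO by 1.89 (adjusted p = 1.14e-07). Orm3, an acute-phase lipocalin, was at -2.50, -2.37, -2.69 and -2.39 in NZO and 2.65, 2.36, 2.22 and -0.10 in 129Ola (-4.27, adjusted p = 1.14e-05), and NZO was lowest of the 5 strains.

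Clock genes were lower in NZO than in 129Ola for 7 of 18 tested and higher for 0 (limma; also 7 and 0 at an unadjusted p under 0.05, beside 34.5% and 21.9% of all genes), with a median of -0.54, and 1 was higher than in C3H. The count rested on 129Ola mice 4 and 5: without them 1 gene was lower and 1 higher, with a median of -0.30, and without mice 7 and 9 11 were lower and 3 higher, with a median of -1.31. It was 3 lower without mouse 5 alone. Dbp differed by -3.55 (SE 1.22, adjusted p = 0.0198), by -2.61 without mouse 4 (adjusted p = 0.0797), by -2.66 without mouse 5 (adjusted p = 0.0792) and by -0.80 without both (adjusted p = 0.542). Nr1d1, which encodes the repressor REV-ERB alpha, was at 0.05, 0.75, 0.98 and -2.47 in NZO and 3.10, 2.57, 1.68 and 1.57 in 129Ola (-2.40, adjusted p = 0.00492), or -1.80 without mice 4 and 5 (adjusted p = 0.0812). Tef, a relative of Dbp, was at 4.44 to 4.89 in NZO and 7.09, 7.15, 4.77 and 5.59 in 129Ola (-1.49, adjusted p = 0.0112), or -0.52 without that pair (adjusted p = 0.33). Per1 differed by -1.40 (adjusted p = 0.0139), but by -0.99 without mouse 5 (adjusted p = 0.0603) and -0.97 without mice 4 and 5 (adjusted p = 0.12). Arntl did not pass (1.21, adjusted p = 0.118); against mice 4 and 5 alone it was 2.89 (adjusted p = 2.91e-05) and against mice 7 and 9 alone -0.46 (adjusted p = 0.331), and it passed without mouse 7 (1.79, adjusted p = 0.0209) or mouse 9 (1.76, adjusted p = 0.0257).

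Cell cycle genes were higher in NZO for 13 of 22 tested and lower for 1, with a median of 0.98. The list means were -0.26 to 0.09 in NZO and -1.23 to -0.43 in 129Ola. Genes of all kinds had a median of -0.02 at mean levels of -1 to 0 and of 0.43 at -3 to -2. After normexp 4 were higher and the median was 0.03, with probes above background in both strains 4 of 12 were higher and the median was 0.04, and without 129Ola mice 4 and 5 7 were higher. Mcm6, a subunit of the replication helicase, was among the brighter ones, at 3.43, 3.35, 3.39 and 3.50 in NZO, -0.35, -0.05, -0.31 and 0.75 in 129Ola and 2.91, 2.71, 2.70 and 3.62 in C3H, so that 129Ola was low (3.41, SE 0.30, adjusted p = 7.53e-08; C3H minus 129Ola 2.97, adjusted p = 6.85e-07). Cdc20, an activator of mitotic exit, differed by 2.21 (adjusted p = 4.85e-05), and the cyclin gene Ccnb1, not well above background in 129Ola, exceeded it in NZO at least 2.03-fold (adjusted p = 5.00e-05) but differed by 0.10 on the log2 scale after normexp (adjusted p = 0.351).

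Markers of the cells that a piece of liver holds were read as whole lists, and in bulk RNA fewer cells of a type cannot be told apart from less RNA per cell. Hepatocyte markers averaged 8.60 to 8.76 in NZO and 8.54 to 8.74 in 129Ola, with 6 of 16 higher and 5 lower, or 8 and 3 with the common-probe scaling and 9 and 1 after normexp. Alb differed by 0.71 (adjusted p = 4.85e-05). Of 9 neutrophil markers tested 6 were higher in NZO and 1 lower, and the list mean was 0.50 to 0.93 in NZO, -1.07 to 0.10 in 129Ola, -0.77 to 0.26 in C3H, -0.73 to 0.74 in B6 and -0.87 to -0.18 in DBA. Ly6g was at 2.58, 1.96, 2.63 and 2.41 in NZO and 0.50, 0.20, 0.49 and 0.32 in 129Ola (2.02, SE 0.16, adjusted p = 1.91e-08), with 1.62, 1.68 and 1.82 against C3H, B6 and DBA. The granule gene Camp differed by 2.24 (adjusted p = 2.44e-04), Mpo by 2.18 (adjusted p = 0.0253) and Ltf, at least 1.53-fold, with an adjusted p of 0.00268. Mpo did not pass without 129Ola mouse 4 (1.82, adjusted p = 0.0795) or 7 (1.77, adjusted p = 0.0819) or NZO mouse 11 (2.06, adjusted p = 0.0568), and after normexp 3 neutrophil markers were higher.

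Erythroid markers were higher in NZO for 6 of 10, at list means of 4.57 to 4.93 in NZO, 3.96 to 4.32 in 129Ola and 4.93 to 5.39 in C3H. The globin genes Hba-a1, Hba-a2 and Hbb-bt differed by 1.18, 1.05 and 1.18 (adjusted p = 0.00881, 0.00438 and 0.0125) and C3H exceeded 129Ola by 1.56, 1.21 and 1.51. The red-cell anion exchanger Slc4a1 differed by 1.21 (adjusted p = 0.00835), or 1.06 without 129Ola mice 4 and 5 (adjusted p = 0.0693). Without 129Ola mice 7 and 9 2 of the 10 were higher, and Hba-a1 (1.005, adjusted p = 0.0741) and Hbb-bt (0.89, adjusted p = 0.115) did not pass. The part that blood in the tissue has in other differences was not tested.

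Stellate cell and fibroblast markers were lower in NZO for 12 of 23 and higher for 0, beside 34.5% and 21.9% of all genes (limma, with 12 and 2 at an unadjusted p under 0.05). With the common-probe scaling 9 were lower and 4 higher, after quantile normalization 10 and 1, and after normexp 10 and 3. List means were 0.65 to 1.08 in NZO, 1.20 to 1.50 in 129Ola, 1.20 to 1.29 in C3H, 1.31 to 1.37 in B6 and 1.03 to 1.15 in DBA. The pericyte gene Rgs5 was at 1.26, 0.62, 0.55 and 0.73 in NZO and 2.49, 2.36, 2.51 and 2.60 in 129Ola (-1.70, adjusted p = 5.32e-07), the receptor Pdgfrb at -1.15, -1.06, -1.26 and -1.36 and 0.29, 0.05, 0.27 and 0.47 (-1.48, adjusted p = 2.35e-09) and the stellate transcription factor Hand2 at -0.98, -1.01, -1.37 and -1.62 and -0.09, -0.08, -0.36 and -0.05 (-1.099, adjusted p = 2.32e-05). The groups did not overlap, and Pdgfrb was also lower in NZO than in C3H, B6 and DBA (-0.73, -0.98 and -0.85; adjusted p = 1.92e-05, 7.93e-07 and 4.37e-06). Ecm1, a secreted matrix protein, differed by -0.86 (adjusted p = 3.78e-06), its further probe by -0.34. Sinusoidal endothelial markers were lower for 11 of 21 and higher for 1 (5 and 3 with the common-probe scaling, 7 and 3 after normexp), with list means of 1.49 to 1.89 in NZO and 1.76 to 1.95 in 129Ola.

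Of 24 Kupffer cell and macrophage markers 4 were higher and 4 lower, or 6 and 3 with the common-probe scaling and 7 and 3 after normexp. Clec4f, which marks resident Kupffer cells, was lower at 4.09 to 4.41 against 5.06 to 5.21 (-0.95, adjusted p = 3.04e-05), as was the iron exporter Slc40a1 (-1.21, adjusted p = 1.50e-05). The monocyte genes Cx3cr1 and Lyz2 were higher by 2.84 and 1.39 (adjusted p = 2.23e-06 and 3.42e-05); Cx3cr1 was low in 129Ola alone of NZO, C3H and 129Ola (-0.15 to 0.66, 0.17 to 1.13 and -3.45 to -1.64), whereas Lyz2 was lowest in C3H. Of 12 lymphocyte markers 5 were higher and 2 lower, beside 21.9% and 34.5% of all genes, and 3 and 1 were so by at least 2-fold. The higher ones included Cd3e of the T cell receptor (1.52, adjusted p = 6.12e-04) and the cytotoxic granule gene Gzma (1.56, adjusted p = 7.43e-04). The list counts were 7 and 2 with the common-probe scaling, 3 and 2 after quantile normalization and 4 and 3 after normexp, where the median was 0.02. The part of these cells in the interferon and MHC differences was not tested.

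Of 4 adipocyte markers tested 1 was higher and 1 lower, of 10 cholangiocyte markers 2 and 4, of 4 pancreas markers 1 and 1, and of 6 skeletal muscle markers 2 and 0 (limma; also 2 and 0 at an unadjusted p under 0.05). The mean of the muscle list was 1.43 in NZO mouse 7 but -1.52 to -1.10 in the other NZO mice and -1.92 to -1.62 in 129Ola. Adrb3, the fat-cell adrenergic receptor, was not well above background in NZO (-5.10, -4.18, -4.57 and -4.51), was at -0.02, 0.30, -0.56 and -0.35 in 129Ola and reached 3.34, 3.42, 3.80 and 3.12 in C3H, at least 13.8-fold and 165-fold over NZO (adjusted p = 5.84e-11 and 2.20e-14). Tff3, a mucosal peptide, was at 0.52, 1.80, 0.55 and 0.78 in NZO, -1.52, -0.93, -1.85 and 0.42 in 129Ola and 6.64, 5.51, 6.22 and 6.81 in C3H. NZO was 1.88 above 129Ola (adjusted p = 0.00355) and differed by -5.38 from C3H, -4.86 from B6 and -2.69 from DBA (adjusted p = 1.83e-07, 9.06e-07 and 5.45e-04).

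Several broad lists held more lower than higher genes on this scale, as did all genes together (34.5% lower and 21.9% higher). Of 50 oxidative phosphorylation genes 33 were lower and 6 higher in NZO than in 129Ola, with a median of -0.35 and no difference of 2-fold or more among them, and after normexp 9 were lower and 10 higher. Of 30 periportal urea cycle and amino acid genes 16 were lower and 4 higher, but 5 and 6 after quantile normalization, 5 and 5 with the common-probe scaling and 3 and 9 after normexp. Of 20 pericentral genes 10 were lower and 2 higher, with a median of -0.50. Of 30 unfolded protein and stress genes 9 were lower and 4 higher (5 and 5 with the common-probe scaling), and of 9 immediate early and RNA handling genes 2 were lower and 1 higher. Neither of these lists had a larger share of lower genes than all genes had.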

How the data were processed

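RNA of 1 liver per array was hybridised to 1-colour Agilent mouse arrays. The deposited scanner files hold processed signal intensities, background-subtracted by Feature Extraction 11.0.1.1 (NZO, B6, DBA) or 11.5.1.1 (C3H, 129Ola), per the file headers; the submitters' processing notes name version 9.1. The authors' deposited value table holds processed intensities of unstated scaling. Their log2 was used as an alternative only (lowest rank correlation with the same array's scanner values 0.955). The centring of that table is not given in the sources used here. Control spots were left out, 55642 of 55681 probes were kept (39 lacked a usable spot somewhere), and log2 intensity minus each array's 75th percentile was taken. Of 25608 probes well above background on all 4 arrays of NZO or of 129Ola, the brightest stood for each of 18950 genes. Names came from the files, updated through RefSeq accessions (GRCm38.p6 table, names only; 28011 of 29780 matched).

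limma 3.58.1 in R 4.3.3 fitted 1 mean per strain over all 20 arrays (15 residual degrees of freedom). Adjusted p is two-sided and Benjamini-Hochberg over all genes. The labels number the mice but do not say how they were chosen. Each p-value sets a difference against the spread between these mice within strains, taken over all 5 strains. The number of arrays limits the precision, and so do signals near background and the sharing of slides (correlation within a slide 0.38). An "at least" fold sets the bright strain's mean against, per array of the dim strain, the higher of the dimmest signal called above background and the probe's own.

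The comparison, the 37 gene lists and the genes were chosen with earlier results of these data known. Named were genes with no overlap between NZO and 129Ola: the 6 largest each way with C3H minus 129Ola past 0.05 too, the 6 with NZO past every strain, the 3 with NZO past C3H but no difference from B6 or DBA nor between C3H and 129Ola, up to 4 per list, and members whose role the text needs. Predicted genes were passed over, and some results under this rule are not reported here. Animal numbers 7 and 9 occur in both strains, but same-numbered mice did not deviate together (correlations -0.05 and -0.03), so they were not paired. The fit was tested on simulated data with independent noise on each array, which cannot speak to slide or version effects. Alternatives changed the scaling, background correction, filter, probe rule, variance model, slide block and mice. Promoter sequences cover the 250 bases before a RefSeq gene start.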

Additional observations from a re-analysis of the deposited data

Results flagged for a closer look

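In 13 of 316 groups of 4 mice checked (158 genes in NZO and in 129Ola), 1 mouse lay farther from the other 3 than Dixon's criterion allows; chance gives about 1 in 20. Of these, 129Ola mouse 7 accounted for the PPARA targets: Cyp4a10 was at 7.08 there (5.76 to 5.84 in the others), Cyp4a31 at 6.92 (5.60 to 5.75) and Cpt1a at 5.63 (6.19 to 6.25), the last in the opposite direction. The same mouse had Igf1 at 7.50 (at most 7.198 in the others) and Hand2 at -0.36 (-0.09 to -0.05). In 129Ola mouse 9 Hao2 was at -1.02 (-4.47 to -4.24), Orm3 at -0.099 (2.22 to 2.65) and Pglyrp1 at -1.47 (-0.38 to -0.19). In 129Ola mouse 4 Fasn was at -0.094 (1.00 to 1.15), Tbc1d4 at -1.30 (-1.96 to -1.86) and Slc4a1 at -2.64 (-2.16 to -2.07). In NZO mouse 7 Susd4 was at 0.85 (-0.16 to -0.01), and in NZO mouse 11 Lpin2 was at 1.13 (1.36 to 1.38).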

How the results depend on the processing

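The counts of genes higher and lower in NZO than in 129Ola stayed within 1.5 times of 4146 and 6529 under quantile normalization (4349 and 5378), normexp (3507 and 5545), the authors' table (3933 and 4985 of 17240 genes), the mean of all probes (4420 and 5980), the limma trend (4156 and 6572), the 8 arrays alone (3661 and 5467), slide as a random block (3307 and 5210) and the replicate block on animal number (2910 and 4824, 5 residual degrees of freedom). Leaving out each NZO, 129Ola or C3H mouse in turn gave 3755 to 4095 and 5829 to 6540. With the percentile over probes above background on all 20 arrays they were 5892 and 4429. Without the filter on dim probes 12821 of 34744 genes were lower in NZO than in 129Ola and 8617 lower than in C3H, 6298 and 2181 of them at 2-fold or more. With probes above background in both strains 2545 were higher than in 129Ola, and at 2-fold or more 850 were higher than in 129Ola and 815 than in C3H. After normexp, whose offset of 50 is close to the 75th percentile of the 129Ola arrays (56.4 to 75.8), 722 were higher and 312 lower than in 129Ola at 2-fold or more, and 559 and 247 than in C3H. Against C3H the slide block gave 2177 higher and 1803 lower and the replicate block 1561 and 1268. In C3H minus 129Ola 2741 genes were higher in C3H and 4661 lower. The slide block gave 1157 and 1780 there, the replicate block 647 and 1016 and the common-probe scaling 4054 and 2557. The cause of these shifts was not tested.

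Of 3906 gene results under 25 settings 3 turned in sign. Cpt1a was at 0.034 with the mean of probes. Without 129Ola mice 4 and 5 Cyp7a1 was at 0.73 and Arntl at -0.46. A further 71 lost their call and 13 gained one. The replicate block ended the calls of Otog, Elovl3, Scd1, Cd36, Ppara, Cyp8b1, Ugt2b37, Fgf21, Tkfc, Pck1, Mpo, Tff3, Dbp, Nr1d1, Tef and Per1. Scd1, Cyp8b1, Fgf21 and Dbp were also lost with the 8 arrays alone and with slide as a random block, which further ended Srebf1, Tef and Mpo. Normexp ended Mrap2, Pnpla3, Ppara, Stat2, Fgf21, Pck1, Cyp2b9, Ccnb1, Mpo, Ltf and Slc4a1. Among the sterol and interferon effector genes named, no alternative that fitted a gene ended its call. Of the 158 genes checked, 118 were fitted with probes above background in both strains and 154 with the authors' values. A setting that left a gene out could not end its call. The probes used for Cyp51, Mx1, Mx2 and Ifi27l2b were not above background on all arrays of both strains. Vldlr (-0.62, adjusted p = 0.0572), Cyp4a31 (-0.43, adjusted p = 0.441) and Ppargc1a (-0.49, adjusted p = 0.0613) were not past the threshold with the mean of all probes. Where no array of a strain measured a gene above background, the signal allows only a bound.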
